A study of Mus musculus with 3 samples.

Results

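C1q-high Langerhans cells of microneedled skin were 779 of the 4825 cells of the microneedle library that passed the Langerhans cell gate used here. They made up 16.1% of the gated cells, with an exact binomial 95% interval of 15.1 to 17.2%. To pass the gate a cell needed 500 or more detected genes, and no more than 10% of its unique molecular identifiers (UMIs) from mitochondrial genes. It also required at least 2% of UMIs from Cd74, H2-Aa, H2-Ab1 and H2-Eb1, which encode the MHC class II machinery, and at least 2 UMIs of the epithelial adhesion gene Epcam. Cells with 2 or more UMIs of the macrophage genes Pf4 and Fcgr1, with 3 or more of the T cell genes Cd3e, Cd3g and Cd3d, or with 0.1% or more of UMIs from the keratin genes Krt14, Krt5, Krt1 and Krt10 were left out. So were cells with 300 CPM or more (UMIs of a gene scaled to 1000000 UMIs in total) of Hpgd and Adgre4 together. A gated cell was C1q-high when C1qa, C1qb and C1qc together reached 1000 CPM of its own UMIs, C1q-zero with no UMI of them (255 cells, 5.28%) and C1q-low in between (3791 cells, 78.6%). Of the 6945 barcodes of the library 6855 passed the limits on genes and mitochondrial UMIs, 878 of them with 1000 CPM of C1q or more, of which the rest of the gate left 779. The members were chosen by their measured C1q and gate-gene values, so the C1q and gate genes, and every contrast of C1q-high with C1q-zero cells, are given as description.

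Langerhans cells live in the epidermis, where they take up antigen. They arise from macrophage precursors but carry it to lymph nodes as dendritic cells do. C1q is the recognition molecule of the classical complement pathway. It is built from A, B and C chains, encoded by the neighbouring genes C1qa, C1qb and C1qc, it binds immune complexes and dying cells, and it is made mainly by macrophages and immature dendritic cells rather than by the liver. The assembled molecule holds equal numbers of the 3 chains, and it starts the cascade only with the proteases C1r and C1s.

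The series holds 3 single-cell libraries of 25062 cells in all, 1 each from ear epidermis of male CD1 mice (spelled Cd1 in the labels) that were left untreated apart from a depilatory cream (Nair), treated with croton oil in acetone and olive oil, or punched repeatedly with microneedles. Treated ears were taken 48 hours after the first treatment, and Langerhans cells were enriched magnetically after trypsin and mechanical dissociation and removal of dead cells. The labels do not state how many animals each library holds. With 1 library per group no difference between groups could be tested, so values are summed UMIs as CPM with exact Poisson 95% intervals, or shares of cells with exact binomial 95% intervals, which cover counting error only.

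The libraries held between 117178809 and 127666928 UMIs. The median total was 16659 UMIs in C1q-high, 18207 in C1q-low and 14705 in C1q-zero cells, and their median mitochondrial shares were 1.15, 1.39 and 1.48%. The 10th percentile was 4376 UMIs in C1q-zero and 10155 in C1q-high cells, so a missing C1q UMI means less in the shallow C1q-zero cells. Between 13 and 32 cell barcodes were shared by any pair of libraries. Of the C1q-high microneedle barcodes, 2 also occurred in the untreated library and 0 in the croton oil library.

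C1q-high cells were common after croton oil and rare without treatment. The same rule took 3999 of 5984 gated croton oil cells (66.8%, interval 65.6 to 68.0%) and 4 of 2007 gated untreated cells (0.199%, interval 0.0543 to 0.510%). The microneedle share (16.1%) lay between them. With 1 library per group these shares compare libraries, not treatments. At least 1 C1q UMI was present in 94.7% of gated microneedle, 98.0% of croton oil and 47.1% of untreated cells. After each cell was thinned to 3000 UMIs, which left out 43 gated microneedle, 28 croton oil and 42 untreated cells, those shares were 65.5, 90.2 and 18.5%. The order of the libraries was the same at equal depth. Among the cells that the Hpgd and Adgre4 limit had removed from the microneedle library, called the resting gate here, 36 of 696 (5.17%) reached 1000 CPM of C1q. In the untreated library the same limit removed most cells, 7302 against the 2007 left.

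**Figure D1:**
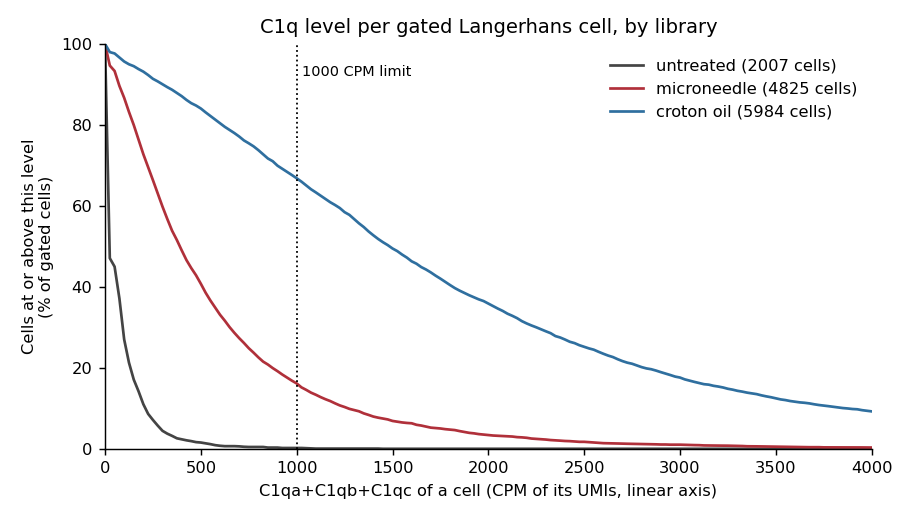
Share of gated Langerhans cells (y axis, percent) at or above each C1q level of the cell (x axis, CPM of C1qa, C1qb and C1qc together, linear), with 1 line per library. The dotted line is the 1000 CPM limit, which 0.199% of untreated, 16.1% of microneedle and 66.8% of croton oil cells reached.

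The C1q level of the gated microneedle cells ran on through the limit without a gap. Within 100 CPM of it, 146 cells lay below and 135 at or above. The cells just inside held 1000.1, 1000.5 and 1000.62 CPM, and those just outside 999.9, 999.334 and 998.081 CPM. C1q-high cells had a median of 1395 CPM, with quartiles at 1155 and 1884 CPM and a highest cell of 6545 CPM. The C1q-high croton oil cells reached a median of 2099 CPM. The C1q-high microneedle cells are thus the upper end of a range and not a separate group by C1q level.

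C1qa carried most of the signal. In the sum over C1q-high microneedle cells C1qa stood at 1392 CPM (95% interval 1372 to 1412), C1qb at 50.3 CPM (46.5 to 54.2) and C1qc at 166 CPM (159 to 173), which is 86.6, 3.13 and 10.3% of the 3 chains' UMIs. A UMI of C1qa was found in every C1q-high cell, of C1qc in 637 (81.8%) and of C1qb in 254 (32.6%). All 3 chains were seen together in 236 C1q-high cells (30.3%), and 124 (15.9%) held C1qa UMIs alone. Only 25 C1q-high cells would have passed the limit on C1qb and C1qc alone. These are levels of 3' tags, which count transcripts irrespective of gene length.

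The balance of the chains differed between groups of cells. C1q-low cells held C1qa at 365, C1qb at 2.04 and C1qc at 17.8 CPM, so C1qa exceeded C1qb 179 times, against 27.7 times in C1q-high cells. In 273 cells of the microneedle library with at least 2 UMIs of Pf4 and Fcgr1 and none of Epcam, called the macrophage gate here, C1qa, C1qb and C1qc stood at 95.4, 37.8 and 72.7 CPM, and C1qa exceeded C1qb only 2.53 times. C1q-high croton oil cells had nearly the same shares as C1q-high microneedle cells, at 2038, 104 and 262 CPM, or 84.8, 4.31 and 10.9% of the sum. Untreated C1q-low cells held 144 CPM of C1qa with 0.152 CPM of C1qb and 1.82 CPM of C1qc.

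**Figure D2:**
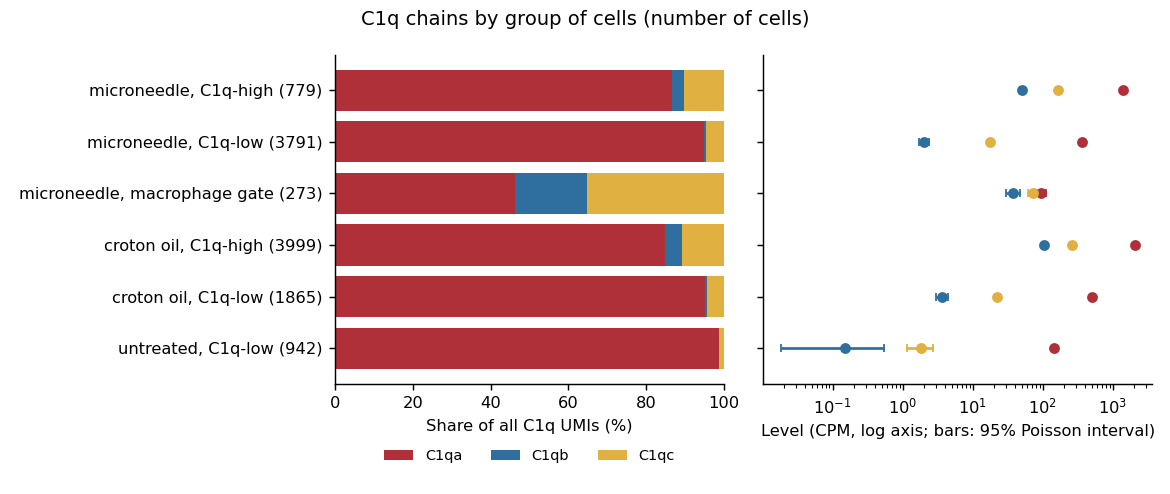
Bars show the share (percent) of the C1q UMIs from C1qa, C1qb and C1qc in 6 groups of cells, and points show the level of each chain (CPM, log axis) with exact Poisson 95% intervals. C1qa made up 86.6% of the UMIs in C1q-high microneedle cells and 46.3% in the macrophage gate.

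Other cells of the microneedle library also held C1q transcripts, in other proportions. The macrophage gate held 206 CPM of the 3 chains together, and 15 of its 273 cells reached 1000 CPM. C1qa stood at 95.4 CPM there, against 503 CPM in all gated Langerhans cells, while C1qb (37.8 against 9.10 CPM) and C1qc (72.7 against 39.1 CPM) stood higher. Neutrophils (375 cells with at least 1% of UMIs from S100a8 and S100a9 and none of Epcam) held 9.07 CPM, and 15 of them (4%) had a C1q UMI at a median of 3303 UMIs per cell. Thinned to 3000 UMIs, a C1q UMI was found in 99.0% of C1q-high, 62.5% of C1q-low, 51.9% of resting-gate, 13.5% of macrophage-gate and 2.08% of neutrophil-gate cells. The neutrophil share is the nearest measure here of C1q from free RNA, and in the croton oil library it was 8.65% of 104 thinned cells.

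C1qa lies on chromosome 4 at 136623223 to 136626161, C1qc at 136616466 to 136620376 and C1qb at 136606009 to 136613511, all on the reverse strand (GRCm39, GENCODE M39). Their identifiers are ENSMUSG00000036887, ENSMUSG00000036896 and ENSMUSG00000036905. The chains that mark the cells are thus neighbours that are read in the same direction.

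The label Langerhans cell was checked against markers. Of 19 Langerhans cell markers outside the rule 15 reached 20 CPM in C1q-high or C1q-zero cells, and 0 differed 2-fold between them. Cd207, the C-type lectin langerin that defines these cells, stood at 532 CPM in C1q-zero, 473 in C1q-low and 341 in C1q-high cells, and 88.1% of C1q-high cells held a UMI of it. The macrophage gate had 10.9 CPM of Cd207. The adhesion gene Cdh1 stood at 304 CPM in C1q-high cells against 9.45 in the macrophage gate, the cyclooxygenase gene Ptgs1 at 392 against 7.56, and the milk-fat globule gene Mfge8 at 1457 against 36.4. These 4 are not the whole list. Its summed level was 7151 CPM in C1q-high cells and 9251 CPM in the macrophage gate, where Lgals3, a galectin that macrophages also express, stood at 6598 CPM against 1162 in C1q-high cells, and Id2, Sirpa and Tgfbr1 were higher in the macrophage gate too. Cd207 was lower in C1q-high than in C1q-zero cells (log2 ratio -0.64, and -1.29 in croton oil cells).

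Macrophage markers gave a mixed picture. Of 25 listed genes 7 reached 20 CPM, 0 were at least 2-fold higher and 1 (Spp1) at least 2-fold lower in C1q-high than in C1q-zero cells, with a median log2 ratio of 0.11. In croton oil cells 4 of 8 were at least 2-fold higher with C1q, Adgre1, Mrc1 and Selenop among them, and 1 lower, with a median of 0.97, or 0.71 with 3 higher when migratory cells were left out. In the microneedle library the summed level of the list was 1229 CPM in C1q-zero, 1284 in C1q-low and 1555 in C1q-high cells, against 12350 CPM in the macrophage gate. The lysozyme gene Lyz2 stood at 7.91 CPM in C1q-zero cells, 3.64 CPM in C1q-high cells and 1328 CPM in the macrophage gate, and Cd163, Trem2, Folr2, Ly6c2, Cd5l and Lyve1 had 0 UMIs in the C1q-high cells. The lipopolysaccharide co-receptor gene Cd14 stood at 72.6 and 108 CPM.

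Markers of neutrophils and keratinocytes were not higher with C1q. S100a9 stood at 88.7 CPM in C1q-zero and 80.6 in C1q-high cells, S100a8 at 56.2 and 45.2 CPM. The 12 neutrophil markers summed to 4719 and 3394 CPM, nearly all from the decoy receptor gene Il1r2, which was higher in these cells than in the neutrophil gate (4468 and 3216 against 2083 CPM), and the keratinocyte markers summed to 61.0 and 55.3 CPM. The 12 T cell markers summed to 11.9, 18.7 and 27.4 CPM in C1q-zero, C1q-low and C1q-high cells, and none reached 20 CPM in them. Most of the gap came from the adhesion gene Cd2, at 5.08 and 15.4 CPM (1.02), while the T cell receptor genes Trac, Trbc1 and Trdc and the cytotoxic granule gene Nkg7 had 0 UMIs in C1q-high cells. The part of these markers in the results was not tested. The highest Scrublet doublet scores fell on 38 C1q-high cells (4.88% of them), 6.54% of C1q-low and 3.53% of C1q-zero cells, and 6.11% of all gated cells. Cycling cells, with 2 or more UMIs of Mki67 and Top2a, were 23.1% of both groups and 29.7% of C1q-low cells. Cells with 2 or more UMIs of the migration genes Ccr7 and Fscn1 were 0.385% of C1q-high and 2.35% of C1q-zero cells.

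Of 6698 genes with at least 20 CPM in C1q-high or C1q-zero microneedle cells, 71 (1.06%) were higher by 2-fold or more in C1q-high cells and 42 (0.627%) lower by as much, on the log2(CPM + 5) scale. The median of all genes was 0.03. Of the 71 higher genes 33 had 20 CPM in C1q-zero cells already, and 38 passed the filter through the C1q-high cells alone, where a gene near 0 in C1q-zero cells is bound to differ. Only 1 library is behind both groups, so these are counts of genes past a size and not of tested changes. The genes named next are the 12 furthest in each direction among those with a UMI in at least 20% of the cells of the higher group.

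Tgfbi, which encodes a secreted matrix protein induced by TGF-beta, led the higher genes named by this rule. It stood at 64.7 CPM in C1q-zero, 145 in C1q-low and 455 in C1q-high microneedle cells (interval 444 to 467), a log2 ratio of 2.72. A UMI of Tgfbi was found in 31.8, 64.4 and 94.1% of these cells, and in 19.1, 40.8 and 81.5% after thinning to 5000 UMIs. In croton oil cells it went from 9.46 CPM in C1q-zero to 208 in C1q-high cells (3.88), and gated untreated cells held 3.79 CPM. Tgfbi was thus higher with C1q in both treated libraries. It was not particular to C1q-high cells: the macrophage gate of the microneedle library held 1071 CPM and the neutrophil gate 281 CPM.

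Several of the other higher genes are known to be induced by interferon. Of the 71 higher genes 11 were on the interferon response list, which holds 15 of all 6698 genes compared. Of these 11, 8 passed the 20 CPM filter through C1q-high cells alone. Among genes at 20 CPM in C1q-zero cells already, 3 of the 33 higher genes were on the list, which holds 7 of those 6303 genes. Irf7, a transcription factor that amplifies type I interferon, stood at 11.9, 20.6 and 76.4 CPM in C1q-zero, C1q-low and C1q-high cells (2.27). Ly6a, the surface protein Sca-1, stood at 79.1, 153 and 392 CPM (2.24). Ifi27l2a (4.80 to 50 CPM, 2.49), Ifi44 (11.6 to 59.6, 1.96), Oasl2 (4.52 to 31.0, 1.92) and Lgals3bp (6.21 to 36.6, 1.89) were low in C1q-zero cells and were found in 24.8 to 36.2% of C1q-high cells. In croton oil cells Ly6a differed as much (13 to 66.7 CPM, 1.99), while the log2 ratios of Irf7, Ifi44, Oasl2, Lgals3bp and Ifi27l2a were 0.50, 0.57, 0.33, 0.76 and -0.49.

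The other higher genes were Matn2, a matrix protein (4.24 to 34.9 CPM, 2.11, and 2.33 in croton oil cells), Ece1, which activates endothelin (7.91 to 46.5, 2.00), Wfdc17 (4.24 to 30.7, 1.95) and the predicted genes Gm17276 (14.4 to 90.3, 2.30) and Gm41307 (3.67 to 27.2, 1.89). In croton oil cells the ratios of Ece1, Wfdc17, Gm17276 and Gm41307 were -0.43, -0.28, 0.16 and 1.15. Of these 12 higher genes, 10 passed the floor of 20 CPM through C1q-high cells alone, and 6 (Ifi27l2a, Irf7, Ifi44, Wfdc17, Oasl2 and Gm41307) lay under 20 CPM in both croton oil groups.

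The lower genes included a pattern receptor and a secreted protein that were lower after croton oil too. Clec7a, the beta-glucan receptor Dectin-1, stood at 67.5, 52.4 and 24.5 CPM in C1q-zero, C1q-low and C1q-high cells (log2 ratio -1.30), and at -2.43 in croton oil cells. Spp1, the secreted protein osteopontin, stood at 132, 71.0 and 52.3 CPM (-1.26, and -3.43 in croton oil cells), while 33.7, 38.7 and 31.1% of the cells held a UMI of it, so the C1q-zero sum rests on higher levels in a part of the cells. The non-classical MHC gene H2-M5 stood at 77.7, 64.2 and 32.2 CPM (-1.15, and 0.10), and Pid1, a modulator of insulin signalling, at 195, 154 and 78.1 CPM (-1.27, and 1.00). Gated untreated cells held 179 CPM of H2-M5 and 462 CPM of Pid1, more than any of the 3 microneedle groups.

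The giant muscle protein gene Neb had the lowest ratio of the 12 (144 to 44.9 CPM, -1.58), followed by the uncharacterized transcript 5430437J10Rik (80.5 to 29.5, -1.31, and -3.34 in croton oil cells) and Plxdc1 (23.7 to 6.84, -1.28, and 0.41). Neb stayed under 20 CPM in croton oil cells. Ppfia1 (169 to 70.5 CPM, -1.20), the sphingomyelin synthase gene Sgms1 (75.1 to 30.3, -1.18), D030028A08Rik (132 to 56.6, -1.16), the ubiquitin ligase gene Ube3c (113 to 48.4, -1.14) and Megf9 (105 to 45.1, -1.14) had croton oil ratios of 0.46, -0.37, 0.51, 0.11 and -0.04. A UMI of Ube3c was found in 37.3% of C1q-zero and 41.3% of C1q-high cells, so its ratio does not come with fewer positive cells.

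**Figure D3:**
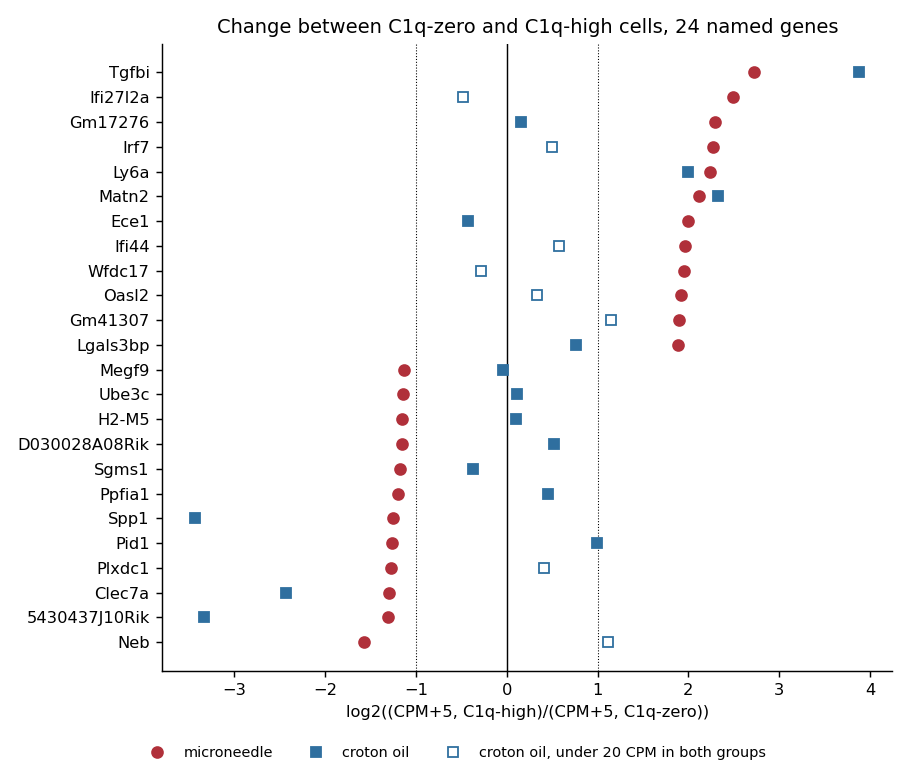
Log2 ratio (x axis) of C1q-high to C1q-zero cells for the 12 higher and 12 lower named genes (y axis) in the microneedle library (circles) and the croton oil library (squares, open where both groups lay under 20 CPM). Dotted lines mark 2-fold. Tgfbi, Ly6a and Matn2 lay at 1.99 or above in both libraries, while Irf7 was at 2.27 after microneedling and 0.50 after croton oil.

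The called genes were chosen for their gap between C1q-high and C1q-zero cells, which largely fixes where another group of Langerhans cells falls, so the levels of C1q-low cells and of the resting gate are given as description. Of the 71 higher genes 42 stood higher in the macrophage gate than in C1q-high cells, against 35.6% of all genes compared. The 71 include 38 that passed the floor through C1q-high cells alone, so this count and that share are not like for like.

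The croton oil library gives the same contrast in cells that the microneedle rule did not use. There 123 of 6558 genes (1.88%) were higher by 2-fold or more and 133 (2.03%) lower by as much in 3999 C1q-high than in 120 C1q-zero cells, with a median of 0.08. Of 55 genes higher after microneedling and compared in both libraries, 43 had the same sign (62.0% of all genes). Of the 55, 19 were also at least 2-fold higher after croton oil (34.5%, against 1.69% of all 6212 genes). The 55 include genes, such as Matn2, that passed the floor through C1q-high cells alone, so this share is description. These 19 are 18.1% of the 105 such croton oil genes. Besides Tgfbi, Ly6a and Matn2 they included the calcium-binding gene Aif1 (27.7 to 105 CPM after microneedling, 29 to 116 after croton oil), Ifitm2 (log2 ratios of 1.46 and 1.35) and the immunoregulatory gene Fgl2 (120 to 248 CPM), which were singled out after their values were seen. Of 25 lower genes 18 had the same sign (38.0% of all genes), and 9 were also at least 2-fold lower (36%, against 1.06% of all genes). These 9, Itga4, Spp1, Clec7a and Ccl22 among them, are 13.6% of the 66 such croton oil genes. Across all 6212 genes compared in both, Spearman's rho of the ratios was 0.0571, a description over genes, which are not independent. The croton oil C1q-zero cells held 25% migratory cells by Ccr7 and Fscn1, against 1.98% of C1q-high cells there. Without migratory cells (3920 and 90 cells) 83 of the 123 higher croton oil genes were still at least 2-fold higher, but only 51 of the 133 lower genes were still at least 2-fold lower, and 103 of the 133 kept their sign.

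Interferons are signals that switch on antiviral genes in the cells that sense them. Of the 26 genes of the interferon response list, 24 had a log2 ratio above 0 in microneedle C1q-high cells, and the median of the 26 was 1.10, between -0.04 (Cxcl9) and 2.78. With 20 CPM as the floor 15 were compared, 11 were at least 2-fold higher and 0 lower, with a median of 1.27 against 0.03 over all genes. The count moved with the C1q limit: 4 of 11 were 2-fold higher with a median of 0.81 at 500 CPM, and 16 of 18 with a median of 1.95 at 2000 CPM. Of the 15 compared at the limit used here, 8 passed the floor through C1q-high cells alone, and all 8 were 2-fold higher. The 7 that C1q-zero cells already expressed at 20 CPM had a median of 0.98, and 3 of them (Isg15, Bst2 and Ly6a) were 2-fold higher. After croton oil 6 were compared, 1 was 2-fold higher and the median was 0.28. The ubiquitin-like modifier gene Isg15 stood at 24.6, 30 and 87.4 CPM in C1q-zero, C1q-low and C1q-high microneedle cells, with intervals of 19.7 to 30.3 and 82.5 to 92.6 CPM at the ends (1.64), and at 24.2 and 22.6 CPM in C1q-zero and C1q-high croton oil cells (-0.08). The tethering gene Bst2 stood at 40.1 and 98.6 CPM (1.20), and Ifit3, which binds foreign RNA, at 0.847 and 20 CPM (2.10). Ifitm3, which blocks viral entry, stood at 2.54 and 46.8 CPM (2.78), in 2.35 and 18.2% of cells. Irf1 and Stat2 of the same list had ratios of 0.32 and 0.11.

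The summed level of the list was 631 CPM in C1q-zero and 1643 CPM in C1q-high microneedle cells, with 6111 CPM in the macrophage gate and 356 CPM in gated untreated cells. By cell, the median was 465, 640 and 1321 CPM in C1q-zero, C1q-low and C1q-high cells. Of the C1q-high cells 78 (10.0%) lay at or below 465 CPM and 701 above it. The 78 held 236 CPM of Tgfbi and 1247 CPM of Cd63, against 480 and 1372 CPM in the 701, and 30.4 CPM of Tgfbi in the 128 C1q-zero cells at or below the same level. Cd207 stood at 470 CPM in the 78, against 527 CPM in those 128 C1q-zero cells. In the 701 it stood at 326 CPM, against 537 CPM in the 127 C1q-zero cells above the level.

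**Figure D4:**
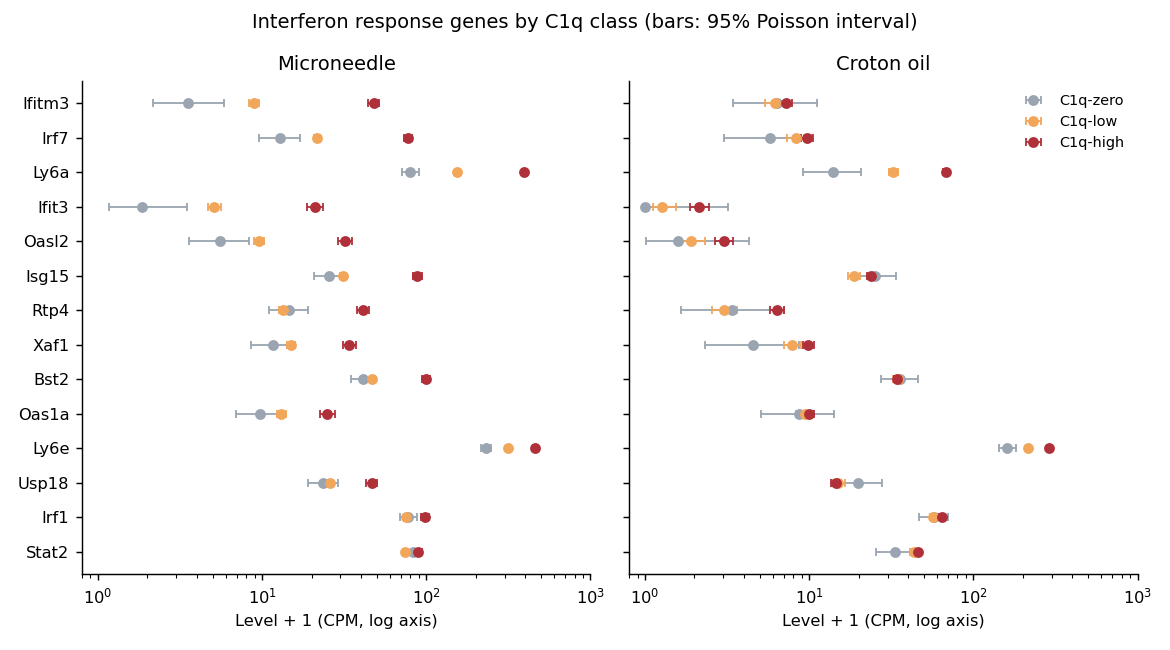
Level (x axis, CPM + 1, log scale, with exact Poisson 95% intervals) of 14 compared interferon response genes (y axis) in C1q-zero, C1q-low and C1q-high cells of the microneedle (left) and croton oil (right) libraries. Isg15 stood at 24.6, 30 and 87.4 CPM on the left, while its croton oil points overlap.

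Promoters were read for interferon genes and, beside them, for Tgfbi, C1qb and C1qc. Of the 15 interferon genes compared 11 were 2-fold higher, but 8 of these passed the floor through C1q-high cells alone. The promoter of C1qa was not read. The motif GAAANNGAAA, the core of an interferon-stimulated response element, was searched on both strands with overlaps allowed in the 250 bases before each RefSeq start (GRCm38.p6, a build other than that of the gene positions above). It was present in 978 of 32851 promoters (2.98%). Counted by gene, it was present in any promoter of 178 of the 5319 compared genes in the table (3.35%). Of the 15 compared genes of the interferon list 10 had a promoter in the table, and 5 of these held the motif, as did 2 of the 8 named higher genes (Tgfbi and Ece1) and 1 of the 10 named lower genes (Spp1) in the table. The sequences run 5′ to 3′ on the strand of the gene, with motif matches in capitals. Isg15 (chr4:156200819-156201068, reverse strand) holds 3 overlapping matches between 78 and 57 bases before the start, Ifit3 (chr19:34583279-34583528, forward strand) 2, and Tgfbi (chr13:56609336-56609585, forward strand) 1 that begins 194 bases before the start. C1qb (chr4:136886201-136886450, reverse strand) and C1qc hold none in this window, which says nothing about the factors that act on them.
Isg15: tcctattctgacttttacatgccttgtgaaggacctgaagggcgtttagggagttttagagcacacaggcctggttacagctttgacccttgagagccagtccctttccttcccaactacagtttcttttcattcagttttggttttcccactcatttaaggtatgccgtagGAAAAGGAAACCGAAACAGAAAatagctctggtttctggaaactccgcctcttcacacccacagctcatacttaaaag
Ifit3: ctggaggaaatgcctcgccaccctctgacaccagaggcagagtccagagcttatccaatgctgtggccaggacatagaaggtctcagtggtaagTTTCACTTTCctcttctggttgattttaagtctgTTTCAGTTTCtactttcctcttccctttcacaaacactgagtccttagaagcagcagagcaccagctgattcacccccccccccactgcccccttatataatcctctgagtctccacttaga
Tgfbi: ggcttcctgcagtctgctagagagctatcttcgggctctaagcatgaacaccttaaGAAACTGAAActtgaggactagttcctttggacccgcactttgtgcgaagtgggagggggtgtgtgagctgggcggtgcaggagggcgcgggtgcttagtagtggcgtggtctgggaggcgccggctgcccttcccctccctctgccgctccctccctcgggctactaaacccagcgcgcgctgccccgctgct
C1qb: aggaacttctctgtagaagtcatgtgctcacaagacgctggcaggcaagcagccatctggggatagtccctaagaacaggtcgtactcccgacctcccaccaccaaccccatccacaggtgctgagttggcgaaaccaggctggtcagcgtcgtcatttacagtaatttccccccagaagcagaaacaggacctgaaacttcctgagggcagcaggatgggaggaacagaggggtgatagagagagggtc

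After microneedling, Tgfbi and the interferon list were higher at each step of C1q. From C1q-zero cells through cells of up to 250, 500, 1000, 2000 and over 2000 CPM of C1q (255, 1368, 1235, 1188, 617 and 162 cells), Tgfbi stood at 64.7, 78.0, 136, 235, 414 and 634 CPM after microneedling. The interferon list went from 631 through 649, 820, 1053 and 1517 to 2196 CPM over the same steps. In croton oil cells Tgfbi went from 9.46 to 287 CPM. The interferon list went from 390 to 665 CPM there, but not upward at every step (474 CPM at 250 to 500 CPM of C1q, 461 CPM at 500 to 1000). Cd207 was lower at higher C1q in both libraries, from 532 to 318 CPM after microneedling and from 644 to 226 CPM after croton oil. Pid1 ran in opposite directions, from 195 to 60.9 CPM after microneedling and from 31.3 to 68.6 CPM after croton oil. Across the 779 C1q-high cells, which share a library and differ in depth, Spearman's rho was 0.32 between C1q and Tgfbi and 0.11 between C1q and the interferon list. Across the 3791 C1q-low cells these values were 0.41 and 0.30.

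**Figure D5:**
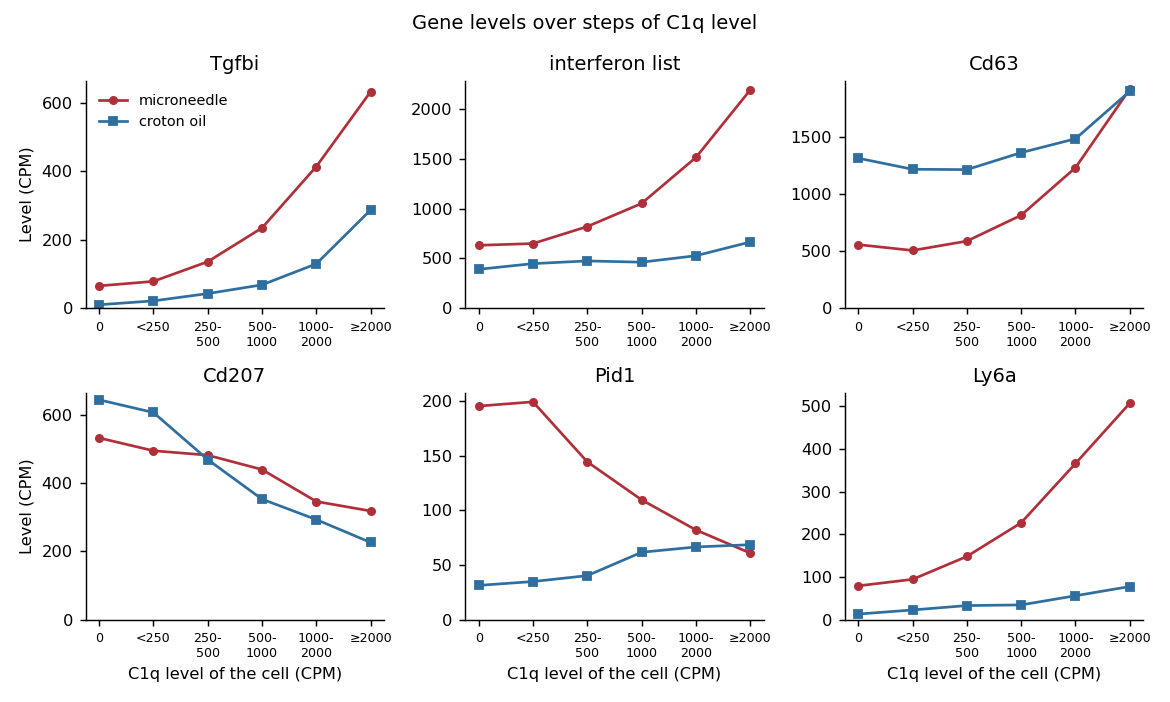
Level (y axes, CPM, linear) of Tgfbi, the interferon list, Cd63, Cd207, Pid1 and Ly6a by C1q step of the cell (x axes, CPM of the 3 chains) in the microneedle (circles) and croton oil (squares) libraries. Tgfbi was higher at each step in both, up to 634 and 287 CPM, and the interferon list reached 2196 CPM after microneedling against 665 CPM after croton oil.

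Few genes of antigen presentation and the lysosome passed 2-fold. Of 8 MHC class II accessory genes compared 0 did, with a median of 0.11. Of 16 MHC class I genes compared, 1 was 2-fold higher (the immunoproteasome gene Psmb10, 25.1 to 59.3 CPM, 1.09) and 0 lower, with a median of 0.52 and, over 12 genes, of -0.11 after croton oil (0.21 there without migratory cells). B2m, the light chain of MHC class I, stood at 486 and 841 CPM (0.79), and the heavy chain gene H2-K1 at 158 and 298 CPM (0.90, and -0.60 after croton oil). Of 23 lysosomal genes 1 was 2-fold higher and 0 lower, with a median of 0.41 and, over 24 genes, of 0.28 after croton oil. The tetraspanin gene Cd63 stood at 556, 627 and 1359 CPM in C1q-zero, C1q-low and C1q-high cells (1.28), and the protease gene Ctsb at 135 and 260 CPM (0.92). The protease inhibitor gene Cst3 stood lower, at 4729.9 and 3419 CPM (-0.47, and -0.96 after croton oil).

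Cytokine and repair genes split. Il1b, the inflammasome cytokine, stood at 219, 342 and 592 CPM in C1q-zero, C1q-low and C1q-high microneedle cells (1.42). In croton oil cells it stood at 764 CPM in C1q-zero and 767 CPM in C1q-high cells (0.01). Among croton oil cells with C1q it was nonetheless higher at each C1q step, from 519 CPM at up to 250 CPM of C1q to 869 CPM above 2000. The 120 croton oil C1q-zero cells held 25% migratory cells. Il21r, the receptor for interleukin 21, stood at 129 and 335 CPM (1.34, and 0.23), and Timp1, an inhibitor of matrix proteases, at 54 and 142 CPM (1.32, and -0.82). The prostaglandin synthase gene Ptgs2 stood at 12.4 and 32 CPM (1.08, and 0.11). Of the 11 inflammatory mediators compared 2 were 2-fold higher and 1 lower, with a median of 0.20 (-0.02 without cycling cells), and of 24 cytokine receptors 1 was higher and 0 lower, with a median of 0.24. The lower mediator was the chemokine gene Ccl4, at 39.3 and 9.52 CPM (-1.61), where only 3.53 and 3.34% of cells held a UMI, so few cells decide it. It was at 13 and 36.9 CPM after croton oil (1.22).

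The TGF-beta list had a median of 0.02 over 16 genes, with 1 at least 2-fold higher and 0 lower. That gene was Pmepa1, a feedback inhibitor of the pathway, at 29.4, 51.4 and 95.8 CPM (1.55, and 0.40 after croton oil). Smad3, a transducer of the pathway, stood at 11 and 26.5 CPM (0.97).

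The maturation list depended on few migratory cells. Of 12 compared 0 were 2-fold higher and 2 lower, with a median of -0.29, and after croton oil 0 of 19 were higher and 11 lower, with a median of -1.33. Leaving out migratory cells, 3 C1q-high and 6 C1q-zero, turned the microneedle median to 0.21 over 10 genes and left 0 past 2-fold, and the croton oil median became -0.01 over 12 genes with 1 lower. Ccl22, a chemokine that attracts regulatory T cells, stood at 42.7 and 12.7 CPM (-1.43) and was found in only 4.71 and 3.08% of cells. The activation marker gene Cd83 stood at 1009.5 and 683 CPM (-0.56). The NF-kappaB gene Nfkb1, of the transcription factor list, stood at 1384, 1074 and 720.3 CPM in C1q-zero, C1q-low and C1q-high cells (-0.94, and -1.10 after croton oil).

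The rest of the complement pathway held no gene that differed 2-fold after microneedling, while after croton oil 1 of 8 was 2-fold higher, with a median of -0.33. In the microneedle library 8 of 27 pathway genes outside the C1q chains were compared, 0 were 2-fold higher or lower, and the median was 0.15. The protease genes C1ra, C1rb, C1s1 and C1s2 had 0 UMIs in all C1q-high cells, as had Cfb, Cfd, Cd55 and Clu. Properdin (Cfp), which stabilizes the alternative convertase, stood at 142 and 175 CPM, and calreticulin (Calr), a partner of C1q on dying cells, at 173 and 248 CPM. Efferocytosis and lipid genes had a median of 0.37 over 15 genes, 12 above 0 and 3 below, with 0 at least 2-fold apart. The phosphatidylserine receptor gene Timd4 stood at 30.8 and 61.5 CPM (0.89), while the cholesterol exporter gene Abca1 was the lowest of the list (-0.94). After croton oil 1 of 17 was 2-fold higher and 3 lower, with a median of 0.23. After microneedling none of 5 Fc receptor genes passed 2-fold, and the inhibitory receptor gene Fcgr2b stood at 126 and 218 CPM (0.77, and 1.14 after croton oil). In croton oil cells 2 of 6 Fc receptor genes were 2-fold higher and 0 lower.

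Without the C1q and gate genes, C1q-high cells still lay near each other. Of the 15 nearest neighbours of a C1q-high cell, by 20 components of 2000 variable genes, 32.8% were C1q-high on average, against 11.6% around C1q-low and 7.50% around C1q-zero cells and 16.1% of all gated cells. Clustering on the same components gave 10 clusters, which are left unnamed. Cluster 6 (305 cells, led by Ifi44, Ifit3, Ifitm3 and Irf7) held 142 C1q-high cells, 46.6% of it (40.9 to 52.3%) and 18.2% of all C1q-high cells. Clusters 7 (led by Ly6a, Id1 and Fdps), 4 (Cxcl1, Nrp2 and Il1b), 5 (heat-shock genes Hsph1 and Hspa1b) and 2 (Htr7, Ece1 and Lpar1) held 28.0, 25.3, 23.6 and 19.4% C1q-high cells. Clusters 1 (1156 cells, led by Nav2 and H2-M5) and 3 (761 cells, led by Neb and Eva1c) held 3.03 and 2.76%. The small clusters 9 (34 cells, led by Ccl22 and Fscn1), 8 (55 cells, S100a9 and S100a8) and 10 (32 cells, Pclaf and Top2a) held 11.8, 9.09 and 3.13%. C1q-high cells were thus spread over several clusters and sparse in the pair marked by H2-M5 and Neb and in cluster 10. Without the cells of cluster 6, a setting chosen after its genes were seen, 57 of the 71 higher genes were still at least 2-fold higher, Tgfbi had a ratio of 2.78, and the interferon list median was 0.89 over 11 genes.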

How the data were processed

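The deposited values are counts of UMIs per gene and cell, not normalized, written by Cell Ranger 8.0.0 per the file headers; GRCm39 and Cell Ranger 8.0 are named in the submitters' processing notes. They came from Chromium 3' libraries, per the labels, and cover 34289 features. UMIs collapse PCR copies, and 3' tags do not resolve isoforms. From the counts, cells were gated as described, UMIs were summed per group and divided by the group total (CPM), and groups were compared as log2((CPM + 5)/(CPM + 5)) for genes at 20 CPM or more in either group, leaving out 19 genes used by the rule. With 1 library per group there is no test. Named genes followed a fixed rule: the 12 largest ratios each way with a UMI in at least 20% of cells of the higher group, plus members of 32 gene lists. The members, lists and rule were chosen with earlier results of these data known. Scrublet (scanpy 1.11.5) marked 1, 0 and 0 cells of the untreated, croton oil and microneedle libraries, fewer than the 0.5% required to use it, so doublets were removed only in an alternative, at 0.8% per 1000 cells. TMM factors came from edgeR 4.0.16 (R 4.3.3), clusters from leidenalg 0.10.2, in Python 3.11.15. The comparison was tested on simulated data. Some genes of the lists are not reported here.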

Additional observations from a re-analysis of the deposited data

Results flagged for a closer look

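Several ratios of C1q-high to C1q-zero cells had opposite signs in the microneedle and croton oil libraries. The 3 given here were the gene at least 2-fold apart in opposite directions in both and the lists, with at least 5 genes compared in each library, whose medians lay at least 0.3 from 0 in opposite directions. The difference was not tested, since each library is 1 sample. Of all 6698 genes compared after microneedling 3578 had a ratio above 0 and 3120 below. Ccl4 had a log2 ratio of -1.61 after microneedling and 1.22 after croton oil. The cholesterol synthesis list had a median of 0.39 over 17 genes after microneedling, with 16 above 0 and 1 at least 2-fold higher, the sterol dehydrogenase gene Nsdhl at 12.1 and 29.4 CPM. After croton oil its median was -0.37 over 15 genes, and -0.20 without migratory cells. The immediate early genes had a median of -0.34 after microneedling, with 15 of 16 below 0 and none 2-fold apart, and of 0.41 after croton oil, with 14 of 16 above 0, or 0.25 without migratory cells. Fosb of that list stood at 2146 CPM in C1q-zero, 1883 in C1q-low and 1328 in C1q-high microneedle cells, and at 922 and 1319 CPM in C1q-zero and C1q-high croton oil cells.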

How the results depend on the processing

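No paired analysis was possible because each group has 1 library. Counting error alone is covered, and animals cannot be told apart from treatment. Microneedle, croton oil and untreated shares of C1q-high cells were 40.8, 84.1 and 1.54% at a limit of 500 CPM and 3.36, 35.9 and 0% at 2000 CPM. Thinned to 3000 UMIs, where 3 UMIs reach the limit, they were 23.7, 68.4 and 0.916%. With no UMI of 6 macrophage genes they were 15.1, 51.0 and 0% (60 of 398 microneedle and 0 of 284 untreated cells, upper limit 1.29%). Without the Hpgd and Adgre4 limit they were 14.8% after microneedling and 0.043% untreated. The 71 higher and 42 lower microneedle genes became 39 and 19 with a 50 CPM filter, 36 and 19 at 500 CPM, 169 and 108 at 2000 CPM, and 583 and 523 in the 60 and 34 cells without UMIs of 6 macrophage genes. Without a filter 107 were higher, and with a pseudocount of 1 CPM 64 were lower. The 123 higher and 133 lower croton oil genes became 72 and 73 with the 50 CPM filter and 365 and 292 without macrophage UMIs, and 86 were lower without migratory cells. In the 60 and 34 microneedle cells without macrophage UMIs the log2 ratio of Ptgs2 reversed, to -1.25. Of 623 values of 51 named genes 622 kept their sign, and of 374 values of 29 list medians 348 kept theirs. Most of the 51 genes were named for a large ratio in the same or overlapping cells, so their signs could hardly change. Values of a gene that failed the filter of a setting were left out. The C1q limits of 500 and 2000 CPM and the cell exclusions change which cells enter; for the other settings the cause was not tested. Leaving out the interferon-led cluster, chosen after seeing the data, gave 59 higher and 38 lower genes.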

Other observations

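Oxidative phosphorylation genes lay slightly higher together in the microneedle C1q-high cells. Of 20 oxidative phosphorylation genes compared, 20 had a log2 ratio above 0 in C1q-high against C1q-zero cells, as had 3578 of all 6698 genes. Of the 20 genes 0 were 2-fold apart, with a median of 0.37 against 0.03 over all genes, and of -0.11 after croton oil. Glycolysis and hypoxia genes had a median of 0.11 over 16 genes, with 9 above 0 and 7 below. Of 4 S phase genes the median was -0.14, and of 4 G2/M genes -0.08. Heat-shock genes had a median of 0.05 over 12 genes, with Hspa1a, an inducible chaperone gene, at 107 and 212 CPM (0.96).

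The tissue repair list had 2 genes at least 2-fold higher, Tgfbi and Timp1, and 1 lower, Mmp9 (-1.07), among 9 compared. The cholesterol exporter gene Abca1 stood at 72.3 CPM in C1q-zero and 35.3 in C1q-high microneedle cells (-0.94), and at 8.28 and 21.5 CPM in croton oil cells (1.00).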
